A study of Mus musculus with 4 samples.

Results

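The genes of vesicle fusion and of the synaptic vesicle were examined in RNA from spinal motor neurons of mice transgenic for wild-type or mutant human SOD1. They were taken by symbol, as the numbered Syt, Stx, Stxbp, Snap, Vamp, Cplx and Syn genes, the Sv2 genes and Syp. This rule uses no measured value, but it was chosen with earlier results of these data known. The rule found 61 of the 27189 genes in each file, of which 17 were Syt, 15 Stx, 8 Stxbp, 6 Vamp, 4 Cplx, 4 Snap, 3 Sv2 and 3 Syn genes. RNA came from 4 mice of the C57BL/6J x SJL/J background at 3 months of age, from 3000 to 4000 large cell bodies per animal that were cut out of the ventral horn by laser, with 1 library per animal. The 2 wild-type libraries are from strain 592, whose transgene is the human SOD1 gene fused to YFP, and the 2 G85R libraries are from strain 737, whose transgene is the same fusion with the G85R mutation of human ALS. Both groups carry a transgene, and mice without one are not among these samples. The G85R strain carries many more copies than the wild-type strain, so that genotype, copy number and strain cannot be told apart. Mice of the G85R strain become paralyzed later in life and nearly all are free of symptoms at this age, and neurons with large bright aggregates were left out of the capture.

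Vesicles fuse with the plasma membrane when SNARE proteins of both membranes zip together. At the synapse the SNAREs are a syntaxin and SNAP-25 of the plasma membrane and synaptobrevin (Vamp) of the vesicle. Sec1/Munc18 proteins hold syntaxin and guide assembly, complexins clamp and promote the final step, and synaptotagmins of the vesicle sense calcium. In motor neurons this machinery releases acetylcholine at the neuromuscular junction, far from the cell bodies that were sampled here, so that the values describe RNA in the soma and not protein at the terminal.

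Levels are given as RPKM, reads scaled for the length of the gene and for the mapped reads of the library, so that genes of different length can be compared. Depth was alike, since 1 read was worth a median over genes of 0.0195 to 0.0226 RPKM in the 4 libraries. The captured tissue was checked with 10 motor neuron markers, all of which were listed above 0 in every library. Chat, the enzyme that makes acetylcholine, was at an RPKM of 66.3 and 81.2 in wild-type against 49.6 and 65.5 in G85R, and the summed RPKM of the list was 1536 to 2072. Of these markers 9 had a lower mean in G85R and 0 of 10 were called, and their median log2 fold change was -0.21. Over all 11530 tested genes 6312 had a lower mean, 0.642% were called and the median was -0.02. RNA of other cells was also present. The summed RPKM of 8 markers of spinal interneurons was 191 to 221, with Slc32a1, the vesicular transporter of GABA and glycine, at 81.8 to 93.6. Of 11 microglial markers the sum was 22.4 and 23.6 in wild-type against 56.2 and 26.8 in G85R replicates 1 and 2, and of 10 astrocyte markers 912 and 904 in wild-type against 1302 and 1000 in G85R. Most of the astrocyte sum was S100b, at 412 to 498, and Aldoc, at 443 to 671. By contrast, Slc1a2 was at 4.64 to 6.81 and Aqp4 at 1.84 to 3.87. The study's own check by quantitative PCR found Gfap RNA in captured neurons at a small fraction of that in total ventral horn. It concluded that contamination by astrocyte RNA was minimal. G85R replicate 1 was the highest library for both glial lists, and Gfap was at 91.9 there and at 11.5 to 28.4 in the other libraries. No marker of microglia, astrocytes or interneurons was listed at 0 in all libraries, so that the levels given here are those of all captured RNA. Oligodendrocyte and endothelial markers summed to 858 to 1120 and to 12.0 to 14.2, and both red cell entries that were tested, of Hbb-b1, were called as higher in G85R, where reads of near-identical globin copies may be shared.

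A few members stood far above the rest. Together the 61 genes made up 1.82% to 1.89% of the summed RPKM of a library. The mean RPKM over the libraries was at least 500 for 4 members, 10 had a mean of at least 100, 20 of 10 to 100, 17 of 1 to 10, and 14 were under 1. A mean of at least 100 was reached by 16.4% of the members and by 2.81% of all genes in the files, and a mean of at least 1 by 77.0% and 42.4%. Snap25 was the fourth most abundant of all genes, and Cplx1, Vamp1 and Syp ranked 14, 29 and 54. In the order of the means, Snap25 stood above Cplx1 in every library. Cplx1 also stood above Vamp1 within every library, while their ranges over the libraries overlapped, and Syp followed without overlap. Further down these ranges mostly overlapped, and in the whole order they did so for 52 of the 60 neighboring pairs. The order of neighbors within each library was not counted. Syt8 and Stx19 were listed at 0 in all libraries.

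**Figure D1:**
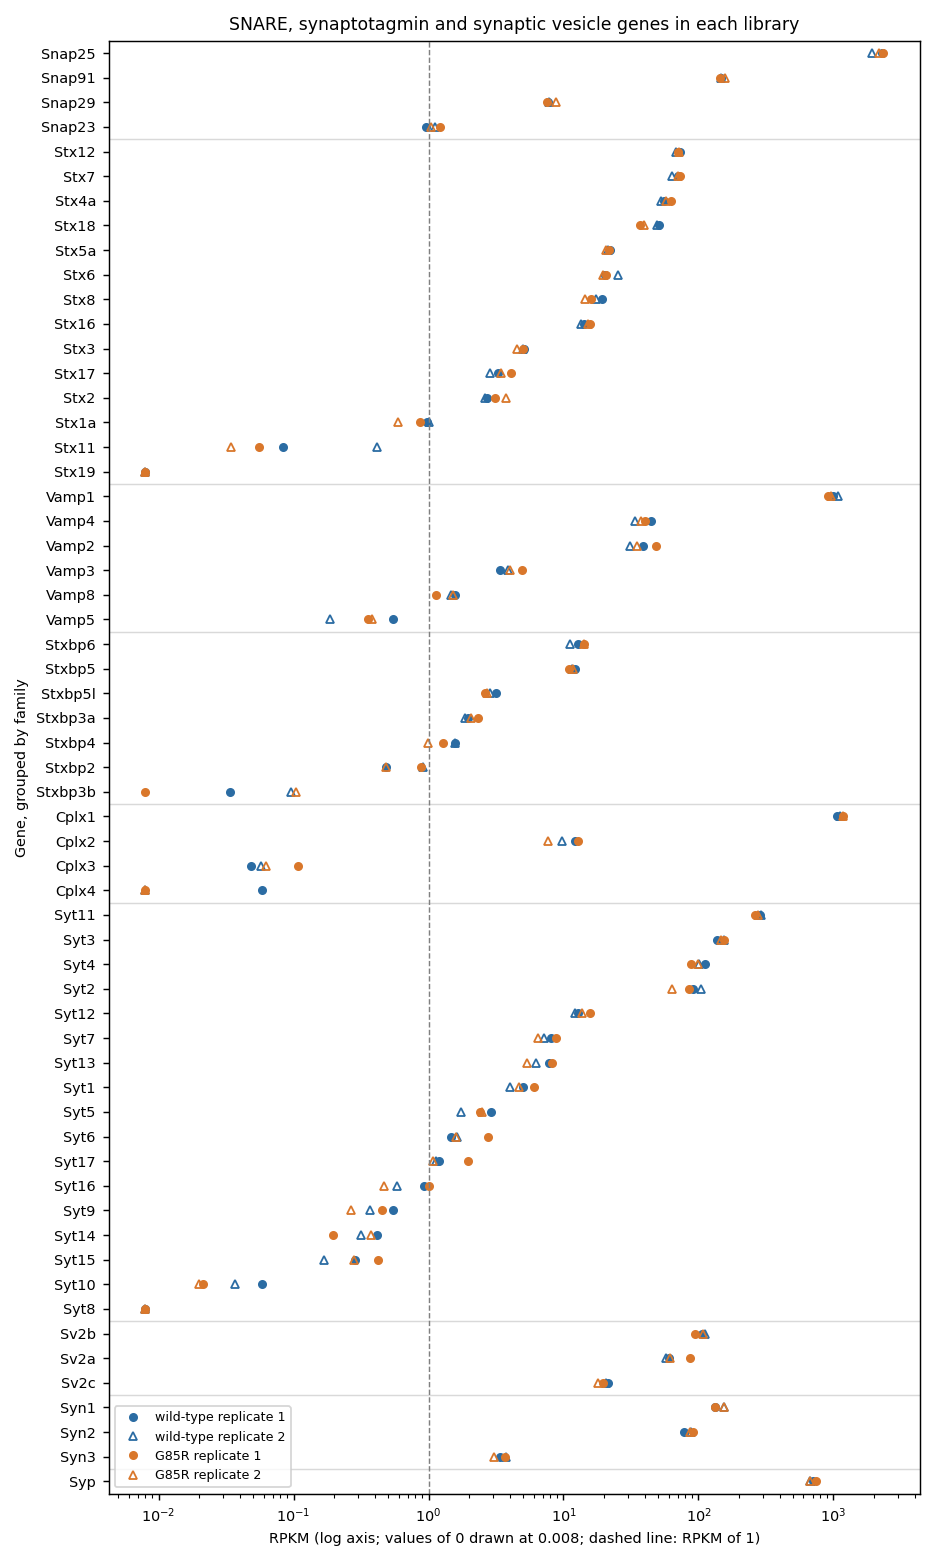
RPKM of 59 of the 61 genes (log axis) by family, with 1 symbol per library (blue wild-type, orange G85R; filled replicate 1, open replicate 2). Snap25, Cplx1, Vamp1 and Syp lie above 500 in each library, while the members of one family span up to several orders of magnitude and the symbols of a gene lie close together.

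Related genes were present at very different levels in the Vamp, Cplx and Snap families and between Syt2 and Syt1. Vamp1 and Vamp2 are both synaptobrevins of synaptic vesicles, and Vamp1 RNA was 18.8 to 34.5 times that of Vamp2 per length. Of the fast calcium sensors, Syt2 was at 13.5 to 25.7 times the level of Syt1. Of the complexins, Cplx1 was at 87.0 to 153 times the level of Cplx2. Snap25 was at 1732 to 2397 times Snap23, the form that most other cells use. Syt11 was at 2.58 to 2.96 times Syt4 and Syt3 at 1.5 to 2.34 times Syt2. In the synapsins and the SV2 proteins the levels were closer as well, with Syn1 at 1.47 to 1.80 times Syn2 and Sv2b at 1.08 to 1.93 times Sv2a. Because these differences rest on telling related transcripts apart, the coding sequences were compared. Identity of the aligned bases was 70.2% for Vamp1 and Vamp2, 76.0% for Syt2 and Syt1, 79.8% for Cplx1 and Cplx2 and 68.5% for Snap25 and Snap23. The longest stretch shared exactly was 18, 26, 32 and 13 bases in these pairs, shorter than the 75 bases of a read. Of the 61 genes, Stxbp3a and Stxbp3b shared most stretches of 75 bases with other coding transcripts. For Stxbp3a this was 15.7% of its stretches, all shared with Stxbp3b, and for Stxbp3b 47.3%, so that reads of these may be exchanged. For the others the share was at most 1.84%. The most alike stretches of 30 coding bases are given here, from the annotation of the mouse genome build NCBIM37, which is mm9, with capitals for the bases that differ between both genes of a pair.
Vamp1: gggaccagaagttgtcAgagctggatgacc
Vamp2: gggaccagaagttgtcGgagctggatgacc
Syt2: ctggaGgccaagaacctgaagaagatggat
Syt1: ctggaAgccaagaacctgaagaagatggat
Cplx1: ggaggggccaccaaggacatggggaagatg
Cplx2: ggaggggccaccaaggacatggggaagatg
Snap25: gaaggGatggaccaaatCaataaGgacatg
Snap23: gaaggCatggaccaaatAaataaAgacatg
They start at base 173 of the coding sequence in Vamp1, 167 in Vamp2, 883 in Syt2, 880 in Syt1, 28 in both complexins, 184 in Snap25 and 169 in Snap23. Even here a pair differs by 1 to 3 bases in 30, except for the complexins with 0.

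**Figure D2:**
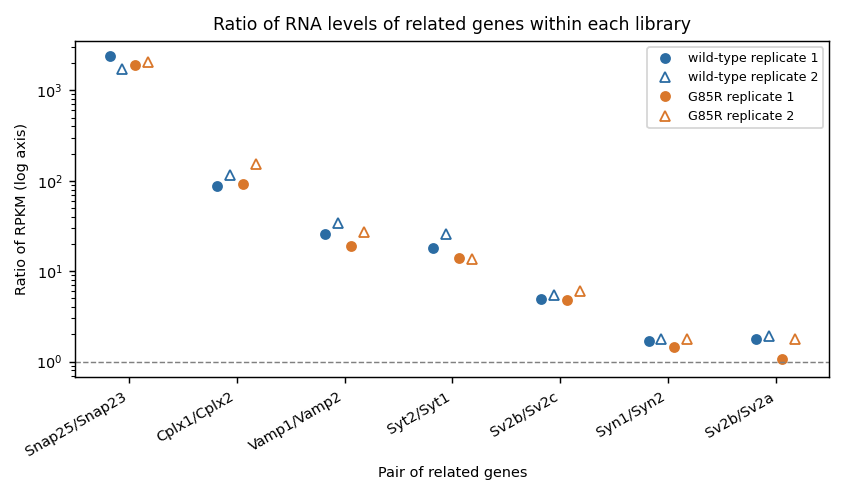
Ratio of the RPKM of related genes within each library (log axis; dashed line at equal levels; blue wild-type, orange G85R; filled replicate 1, open replicate 2). Snap25, Cplx1, Vamp1 and Syt2 exceed their relatives by at least 13.5 times in every library, and Syn1 and Sv2b exceed Syn2 and Sv2a by less than 2 times.

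The comparison of G85R with wild-type asks whether RNA of the release machinery is altered in motor neurons before symptoms. It was made with limma, a linear model per gene whose variance is moderated across genes, on log2(RPKM + 0.1), a scale that understates changes of low genes, with adjustment of p over all 11530 genes that had a mean RPKM of at least 1. These included 47 of the 61 members. None of the 47 was called at an adjusted p under 0.05, where 0.642% of all tested genes were. The lowest adjusted p was 0.198, for Stx18. An unadjusted p under 0.05 was found for 2 members, Stx18 and Syt2, both lower in G85R, and for 11.0% of all tested genes. Means in G85R were higher for 26 members and lower for 21, and the median log2 fold change was 0.03, against -0.02 over all tested genes. The fold changes lay between -0.45 and 0.41, and 0 members differed by more than 0.5 on the log2 scale, compared with 6.66% of all tested genes. Both G85R values lay outside those of wild-type for 21 members, 11 higher and 10 lower. That is 44.7% of those tested, and over all tested genes it was 41.2%, with 17.3% higher and 23.9% lower. The median difference of a member between replicates was 0.134 in wild-type and 0.155 in G85R on the log2 scale, and that between the means of the genotypes was 0.140. These measures are not alike, since means of 2 libraries vary less than single libraries do. The study's own test, a log-linear likelihood ratio test that takes the RPKM as counts, likewise called 0 members after adjustment, against 0.228% of all genes. It gave an unadjusted p under 0.05 to Vamp1, Snap25, Syt2 and Cplx1, 4 of the 61 members, and to 1.29% of all genes. With RPKM taken as counts, genes of high level reach a low p at smaller fold changes. A mean RPKM of at least 1 was reached by 77% of the members and 42.4% of all genes. Hence the share of members and that of all genes in this test are not directly comparable. Over 2 libraries per genotype, exact permutation of the labels cannot give a two-sided p below 0.333, and the limma p-values draw their variance in part from other genes.

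**Figure D3:**
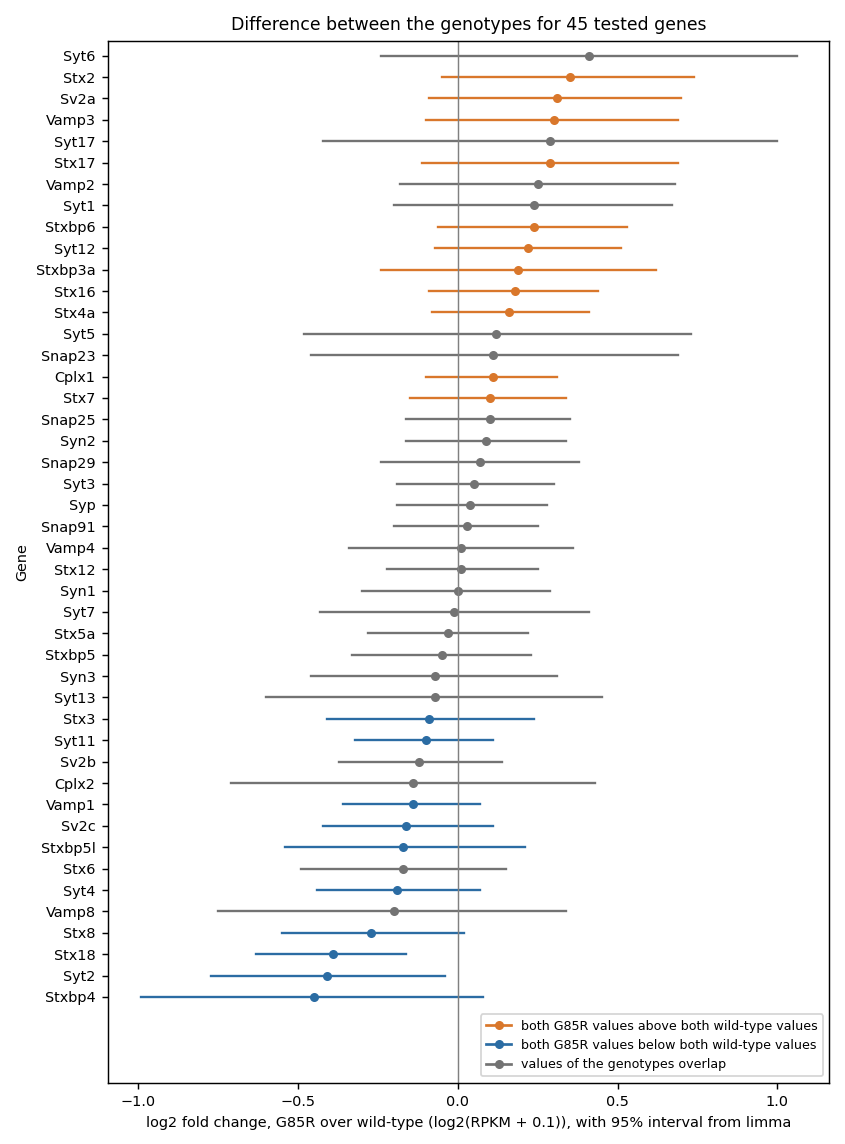
log2 fold changes of 45 of the 47 tested members, G85R over wild-type, on log2(RPKM + 0.1), with 95% intervals from limma. Points run from -0.45 for Stxbp4 to 0.41 for Syt6, and the intervals of Stx18 and Syt2 alone leave out 0 before adjustment for the number of genes tested.

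**Figure D4:**
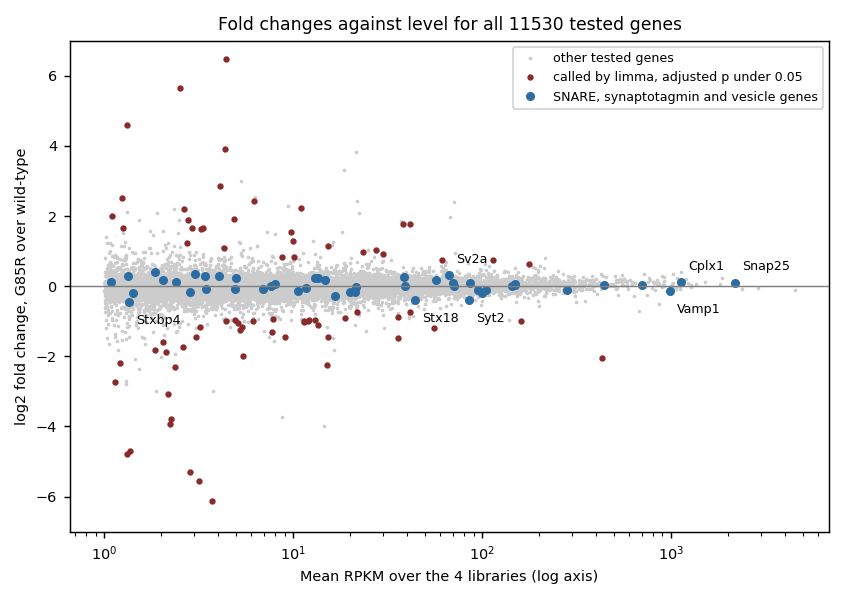
log2 fold change, G85R over wild-type, against mean RPKM (log axis) for the 11530 tested genes. The 47 members (blue) stay within 0.45 of 0 at every level, whereas all tested genes reach log2 fold changes of 6.48 and -6.14. The 74 genes called by limma are drawn in red.

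None of the release SNAREs passed the test, and their log2 fold changes lay between -0.14 and 0.25. Snap25 (Entrez Gene 20614; chromosome 2, 136539189 to 136608164) was at an RPKM of 2284 and 1946 in wild-type against 2349 and 2159 in G85R, a log2 fold change of 0.10 (95% interval -0.16 to 0.35). The values of the genotypes overlapped. Vamp1 (22317; chromosome 6, 125165569 to 125194561) was at 1000 and 1073 in wild-type against 919 and 958 in G85R. Both G85R values were below wild-type, and the mean differed by -0.14 on the log2 scale (adjusted p = 0.652 from limma). Vamp2 (22318; chromosome 11, 68901992 to 68905886) was at 39.0 and 31.1 in wild-type against 48.7 and 35.2 in G85R, so that replicate 1 was the higher library in both genotypes. Its log2 fold change of 0.25 had an interval from -0.18 to 0.68, and it was 0.01 without G85R replicate 1 and 0.48 without G85R replicate 2. Stx1a (20907; chromosome 5, 135499352 to 135526970) was too low to be tested. It was at an RPKM of 0.974 and 1.01 in wild-type against 0.868 and 0.596 in G85R, from 36 to 66 estimated reads per library.

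Of the proteins that bind SNAREs, Cplx1 (12889; chromosome 5, 108947573 to 108979043) accounted for 98.9% to 99.3% of the summed RPKM of its family. Cplx1 was at 1061 and 1115 in wild-type against 1175 and 1170 in G85R. Both G85R values were the higher ones, and the difference of 0.11 had a standard error of 0.09 (adjusted p = 0.732 from limma). Cplx2 varied more within a genotype than between them, with 12.2 and 9.67 in wild-type against 12.7 and 7.64 in G85R. The complexins of the retina, Cplx3 and Cplx4, rested on at most 8 reads in a library, with an RPKM of 0.0487 to 0.107 for Cplx3 and 0 to 0.0584 for Cplx4. Among the other syntaxin-binding genes, Stxbp6 (amisyn) was at 12.9 and 11.1 in wild-type against 14.2 and 14.1 in G85R and Stxbp5 (tomosyn, which competes with synaptobrevin for syntaxin) was at 12.2 and 11.5 against 11.0 and 11.8. The log2 fold change of Stxbp6 was 0.24 (adjusted p = 0.560 from limma). Stxbp4, a syntaxin 4 binding protein first described in insulin-responsive cells, had the lowest fold change of the tested members. It was at an RPKM of 1.58 and 1.57 in wild-type against 1.27 and 0.998 in G85R, a log2 fold change of -0.45 (SE 0.22, with an adjusted p of 0.534 in limma). With 60 to 104 reads per library it is also one of the least deeply measured of the tested members. Stxbp5l, the second tomosyn, was at 3.14 and 2.87 against 2.61 and 2.72, and Stxbp3a, or Munc18c, at 1.95 and 1.85 against 2.31 and 2.05. Stxbp2, or Munc18-2, was not tested, at 0.481 to 0.905, and Stxbp3b, the near copy of Stxbp3a, had at most 3 reads per library. Of the 6 tested Stxbp genes 3 had a higher and 3 a lower mean in G85R, with 0 called, against 0.642% of all tested genes.

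The synaptotagmins were the most diverse family, with 11 of 17 members tested. The highest was Syt11 (229521; chromosome 3, 88548622 to 88636219), which like Syt4 lacks a residue that other forms use to bind calcium, with 41.1% to 44.5% of the summed RPKM. It was at 288 and 292 in wild-type against 261 and 278 in G85R, a log2 fold change of -0.10. Syt3, a calcium sensor of high affinity, was at 137 and 155 against 154 and 148. Syt4 (20983) was at 112 and 101 in wild-type against 88.2 and 98.7 in G85R. It shares 14.7% of its exon bases with the annotated gene Gm16871. Both G85R values were the lower ones, with a log2 fold change of -0.19 (adjusted p = 0.615 from limma). Syt2 (20980; chromosome 1, 136605877 to 136649726), the fast calcium sensor known from the neuromuscular junction, was at 90.7 and 104 in wild-type against 84.4 and 63.3 in G85R. Wild-type thus averaged 97.3 ± 9.25 and G85R 73.8 ± 14.9 (SD, n = 2 each). The log2 fold change was -0.41 ± 0.15 (standard error), a 1.33-fold lower mean, with an unadjusted p of 0.0332 that became an adjusted p of 0.408 in limma. Leaving out 1 library moved the log2 fold change from -0.20, without G85R replicate 2, to -0.62, without G85R replicate 1. The summed RPKM of the motor neuron markers was 1737 and 2072 in wild-type against 1536 and 1845 in G85R, and their part in this result was not tested. In a bulk sample such as these fewer cells of a type cannot be told apart from less RNA per cell. Syt1, the fast sensor of most forebrain neurons, was at 5.05 and 4.03 in wild-type against 6.07 and 4.67 in G85R, with a log2 fold change of 0.24 (adjusted p = 0.726 from limma) that ranged from 0.05 to 0.42 when 1 library was left out. The ratio of Syt2 to Syt1 was 18.0 and 25.7 in wild-type against 13.9 and 13.5 in G85R, without overlap. Among the ratios computed, Sv2b to Sv2a and Syt3 to Syt2 were also without overlap and the others overlapped. Sv2b to Sv2a was barely apart, at 1.78 and 1.93 in wild-type against 1.08 and 1.77 in G85R. Syt3 to Syt2 rests on the same Syt2 values as Syt2 to Syt1. No ratio was tested. Syt7, the slow sensor of asynchronous release and facilitation, was at 8.05 and 7.15 against 8.84 and 6.43. Syt9, the third fast sensor, had an RPKM of 0.268 to 0.547, and Syt10, Syt14, Syt15 and Syt16 were also under the level at which genes were tested. Syt10 and Syt15 rested on at most 3 and 16 reads per library. Syt6 had the highest fold change of the tested members, with 1.48 and 1.63 in wild-type against 2.75 and 1.59 in G85R. Its values overlapped, and only G85R replicate 1 was high (log2 fold change 0.41, adjusted p = 0.677 from limma). Syt17 was high in the same library, at 1.95, and at 1.08 to 1.20 in the others. Syt12 was at 12.9 and 12.1 in wild-type against 15.6 and 13.7 in G85R, without overlap (0.22, adjusted p = 0.579 from limma). The values of Syt13, from 5.33 to 8.22, and of Syt5, from 1.73 to 2.91, overlapped. Of the tested synaptotagmins 6 had a higher and 5 a lower mean in G85R.

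RNA of the vesicle proteins Syp, Syn1 to Syn3 and Sv2a to Sv2c differed by -0.16 to 0.31 on the log2 scale. Of these 0 of 7 were called, against 0.642% of all tested genes. Syp (20977; chromosome X, 7215597 to 7230382), the abundant vesicle protein synaptophysin, was at 711 and 667 in wild-type against 748 and 672 in G85R, with a log2 fold change of 0.04 (interval -0.19 to 0.28). Of its annotated exon bases 16.8% lie within Gm14703 as well, so that reads there may belong to either gene. Syn1 (20964; chromosome X, 20437637 to 20498130), which tethers the reserve pool of vesicles, was at 133 and 155 in both genotypes. Syn2 was at 78.6 and 88.2 against 90.8 and 86.3, and Syn3 at 3.37 and 3.74 against 3.67 and 3.08. The values of the genotypes overlapped for each synapsin. SV2 proteins are transporter-like glycoproteins of the vesicle, and Sv2b was the highest of them at 107 and 112 in wild-type against 94.3 and 108 in G85R. Sv2a (64051; chromosome 3, 95985074 to 95999444) was at 60.3 and 57.8 in wild-type against 87.1 and 61.3 in G85R, a log2 fold change of 0.31 (SE 0.17, with an adjusted p of 0.572 in limma). The G85R values lay above wild-type, but nearly all of the difference came from G85R replicate 1, and without that library it was 0.05. This is the library with the highest astrocyte and microglial markers, and the part of these in the value was not tested. Sv2c, the form of motor and basal ganglia neurons, was at 21.5 and 20.5 in wild-type against 19.7 and 18.1 in G85R, with a log2 fold change of -0.16 (adjusted p = 0.692 from limma).

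SNAREs of other membranes included the member with the lowest p. Stx18 (71116; chromosome 5, 38429981 to 38529004, plus strand) is a syntaxin of the endoplasmic reticulum that serves retrograde transport from the Golgi. It was at an RPKM of 50.7 and 49.4 in wild-type against 36.8 and 39.2 in G85R, so that the groups were well apart and the spread within each was small. Wild-type averaged 50.0 ± 0.951 and G85R 38.0 ± 1.70 (SD, n = 2 each). The mean was 1.31-fold lower, or -0.39 on the log2 scale with a standard error of 0.10, with an unadjusted p of 0.00595 and an adjusted p of 0.198 from limma. Leaving out any one library left the log2 fold change between -0.44 and -0.35. The end of Stx18 overlaps that of Nsg1, a neuronal gene of the other strand, from 38528432 to 38529004, which is 13.7% of the annotated exon bases of Stx18. The library protocol is not stated to keep the strand, and reads in the overlap cannot be assigned. Nsg1 was far higher, at 384 and 389 in wild-type against 368 and 413 in G85R, where its values overlapped with a log2 fold change of 0.01. Stx8, an endosomal syntaxin, was at 19.3 and 17.3 in wild-type against 16.0 and 14.4 in G85R, with a log2 fold change of -0.27 (SE 0.12, with an adjusted p of 0.489 in limma).

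Of the 16 tested SNAREs outside the synaptic set, both G85R values were above wild-type in 6 and below it in 3, together 56.2%, where it was 41.2% over all tested genes. Some of both were of low level. Stx2, a syntaxin of the plasma membrane, was at 2.69 and 2.62 in wild-type against 3.11 and 3.73 in G85R, the second highest fold change of the tested members (0.35, adjusted p = 0.515 from limma). Vamp3, or cellubrevin, of recycling endosomes, was at 3.36 and 3.88 against 4.92 and 4.03, a log2 fold change of 0.30. Stx17, which serves the fusion of autophagosomes with lysosomes, was at 3.25 and 2.85 against 4.11 and 3.42, a log2 fold change of 0.29. With 1 library left out, the log2 fold change of Vamp3 ranged from 0.15 to 0.44 and that of Stx17 from 0.16 to 0.42. The differences of Stx2, Vamp3 and Stx17 did not pass the test, and the intervals of all of them included 0. The endosomal syntaxins Stx12 and Stx7 were the highest of the group. Stx12 was at 73.2 and 68.1 in wild-type against 70.8 and 71.6 in G85R, and Stx7 at 71.0 and 63.8 against 72.9 and 71.1. Vamp4, of the trans-Golgi network, was at 44.4 and 33.7 in wild-type against 40.4 and 37.3 in G85R. Snap29, a SNARE without a membrane anchor, was at 7.72 and 7.83 against 7.55 and 8.82. Stx4a, a syntaxin of the plasma membrane, was at 55.1 and 52.5 in wild-type against 62.8 and 57.9 in G85R (0.16, adjusted p = 0.648 from limma). The Golgi syntaxins Stx5a, Stx6 and Stx16 lay between 13.4 and 25.2, and of these Stx16 alone had both G85R values above wild-type. Stx3 was at 5.06 and 5.03 in wild-type against 5.00 and 4.50 in G85R, both lower. Vamp8 was at 1.13 to 1.57 and Snap23 at 0.953 to 1.22, with at most 76 reads per library for Snap23 and 32 for Vamp8. Stx11, a syntaxin of immune cells, and Vamp5, first described in muscle, were not tested, with at most 27 and 24 reads per library. Of these 16 SNAREs, 10 had a higher and 6 a lower mean in G85R, and the median was 0.04 on the log2 scale. One symbol that the rule takes up is no SNARE. Snap91 is the clathrin adaptor AP180 of vesicle endocytosis, and it was at 148 and 147 in wild-type against 145 and 156 in G85R.

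Other genes of the vesicle cycle were read from the same fit, in lists that were chosen with earlier results of these data known. Genes of priming and the active zone were counted by entry, so that Unc13a counted more than once, with log2 fold changes of -0.05 and -0.16. Of the 26 tested entries 22 had a lower mean in G85R, as did 6312 of the 11530 tested genes. Their median was -0.16 on the log2 scale, 5 had an unadjusted p under 0.05, against 11.0% of all tested genes, and 0 were called, against 0.642%. The lowest was Cadps2, a priming factor of dense-core vesicles, at 4.21 and 2.77 in wild-type against 1.20 and 1.49 in G85R (log2 fold change -1.28, adjusted p = 0.101 from limma). Rab3b, a GTPase of secretory vesicles, was at 51.8 and 57.6 in wild-type against 35.7 and 38.8 in G85R (-0.55, adjusted p = 0.111 from limma). Rims1, which links vesicles to calcium channels, was at 16.3 and 16.4 against 13.2 and 13.5. Both G85R values were below both wild-type values in 12 of the 26 and above them in 0, where over all tested genes 23.9% were below. Of the genes of vesicle endocytosis, 18 of 26 had a lower mean, with a median of -0.06. Both G85R values were below wild-type in 13 and above it in 3, together 61.5% of the list. Over all tested genes this was 41.2%, with 23.9% below and 17.3% above. An unadjusted p under 0.05 was found for 5 of the 26, of which Eps15, an endocytic adaptor, was higher (0.31, adjusted p = 0.395 from limma), and 0 were called. Synj2, a phosphoinositide phosphatase, was at 6.55 and 5.91 in wild-type against 3.47 and 2.85 in G85R (-0.96, adjusted p = 0.0644 from limma). The 21 tested SNAREs, Sec1/Munc18 proteins and disassembly factors outside the rule had a median of 0.00, and Nsf, the ATPase that takes SNARE complexes apart, was at 373 and 382 against 344 and 364. The 20 tested vesicle membrane proteins and transporters had a median of 0.02, and in both lists 0 were called.

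**Figure D5:**
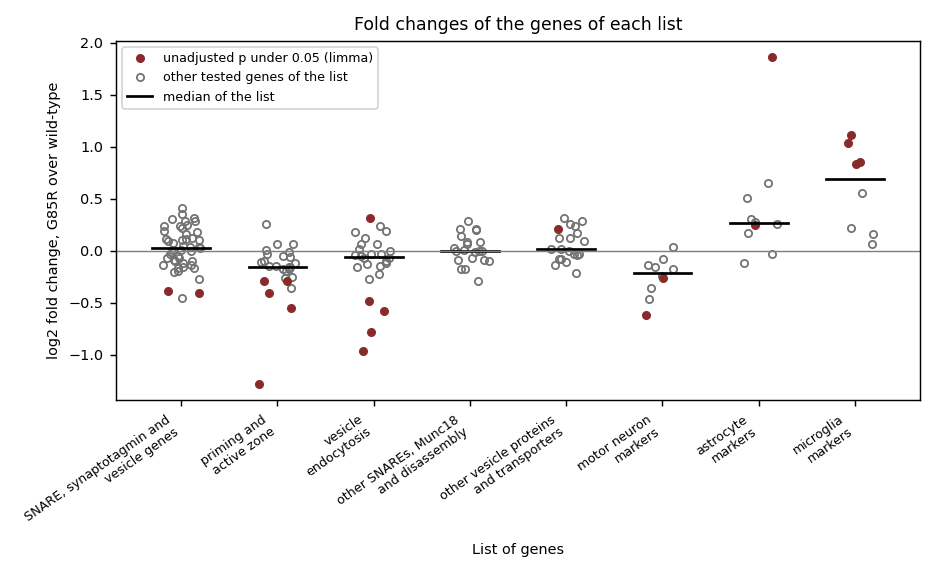
log2 fold change, G85R over wild-type, of the tested genes of each list (points; red for an unadjusted p under 0.05 from limma; bar for the median). The SNARE, synaptotagmin and vesicle genes are centered at 0.03, priming and active zone genes at -0.16, motor neuron markers at -0.21, astrocyte markers at 0.27 and microglial markers at 0.69.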

How the data were processed

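RNA was measured in 4 libraries, and the groups are those of the labels. The authors mapped reads with Bowtie 0.12.3 to mm9 and to splice junctions and quantified UCSC gene clusters with Cufflinks. The deposited values are RPKM, which the authors gave in a first column without and in a second column with an extra read per gene. The difference of the columns is the RPKM of 1 read and gave, by division, estimated reads, which are not exact counts, so that no counting intervals were computed and no count model was used as the main test.

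The test of genotype was lmFit followed by eBayes with a trend, from limma 3.58.1 under R 4.3.3, applied to log2(RPKM + 0.1) where the mean RPKM reached 1, with Benjamini-Hochberg adjustment over all of them and no block. The log-linear test was a Poisson likelihood ratio test of the RPKM with the added read, rounded, over all genes. The fit was tested on simulated data. Alternatives were other pseudocounts, filters, scalings and variance models, a replicate block and leaving out each library.

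Described by name were the core release genes, the 3 highest members of each family, members with an unadjusted p under 0.05, the 5 largest non-overlapping differences in each direction and members at 0. Members named beyond these, and the genes of other lists, were chosen after their values were seen. The members and lists were chosen with earlier results of these data known. All 61 members were placed on NCBIM37 (GENCODE vM1), 60 by symbol and 1 by a RefSeq synonym. Of the members, 2 enter all counts and medians but are not reported here by name. Coding sequences were aligned with Biopython 1.88 on the longest annotated transcript, and exact stretches of 75 bases were searched in the spliced transcripts of protein-coding genes only, so that pseudogenes elsewhere in the genome were not covered. The remaining steps used Python 3.11.15, numpy 2.4.6 and pandas 2.3.3 and drawn with matplotlib 3.10.9.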

Additional observations from a re-analysis of the deposited data

How the results depend on the processing

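Under 15 alternatives 0 members were called in each except with the replicate block, where 1 was. This was Stx18 (log2 fold change -0.39, adjusted p = 0.0309 from limma). With the replicate block 5 members had an unadjusted p under 0.05, and 527 genes were called in all, 74 of 74 earlier calls among them. The study sets replicates of the same number side by side, but no shared litter, batch or day is named for a number in the sources used here. The deviations of same-numbered libraries correlated at 0.220 over the tested genes and 0.130 over the tested members, with only 2 pairs. The number of all genes called was 17 with a minimum mean RPKM of 5, 112 without a filter, 40 after quantile normalization and 49 without a trend. The log-linear test gave 4 members an unadjusted p under 0.05. Leaving out 1 library, with the lone library assumed to vary like the other genotype, gave 1 to 5 members at an unadjusted p under 0.05, 31 to 37 members without overlap (easier to reach with a lone library), 78 to 188 genes called and a median log2 fold change of the members from 0.00 to 0.08. The lowest of these were without wild-type replicate 2 for the unadjusted p (1 member), and the highest without G85R replicate 2 (5 members, 37 without overlap, 188 genes and 0.08), while without wild-type replicate 1 there were 4 at an unadjusted p under 0.05 and 35 without overlap.

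For the 30 named members that were tested, the direction was kept in all but 19 of 388 values, in 11 members of small difference. The filters, the replicate block and the variance models cannot change a log2 fold change here. Their values among the 388 were thus fixed in advance and say nothing on stability. Leaving out 1 library at a time moved the log2 fold change of Cplx2 from -0.50 to 0.22, of Snap25 from -0.02 to 0.21, of Snap29 from -0.04 to 0.18, of Snap91 from -0.03 to 0.08, of Stx12 from -0.04 to 0.06, of Stxbp5 from -0.10 to 0.00, of Syn1 from -0.11 to 0.11, of Syn3 from -0.20 to 0.05, of Syp from -0.03 to 0.12, of Syt3 from -0.04 to 0.14 and of Vamp4 from -0.19 to 0.20. Quantile normalization gave 0.00 for Snap91 and -0.02 for Stx12, rescaling by the median ratio 0.03 for Syn1, and the log-linear test -0.01 for Vamp4. The standard error of a tested member was 0.09 to 0.30 on the log2 scale with 2 mice per genotype, which limits the size of a difference that could be resolved.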

Other observations

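Some genes next to the release machinery stood out by their values and were chosen after these were seen. Sncg, a synuclein abundant in motor and sensory neurons, was at an RPKM of 1113 and 1121 in wild-type against 1295 and 1291 in G85R (log2 fold change 0.21, adjusted p = 0.426 from limma), so that the difference exceeded the spread between replicates while it did not pass the test. Sncb was at 221 and 202 against 299 and 230. Sytl2, a synaptotagmin-like effector of Rab27, was at 26.2 and 25.9 against 17.8 and 19.9 (-0.46, adjusted p = 0.174 from limma). It was the one gene of that list that could be tested.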
